A study of Mus musculus with 6 samples.

Results

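The 35 genes described here encode the machinery through which MLL fusion proteins and Polycomb proteins act on chromatin, and they were taken by name from the 18194 genes measured, with the brightest probe set of each gene (the highest mean log2 intensity over the 6 arrays). They fall into 6 roles: 7 genes of the MLL histone methyltransferase complex, 12 fusion partners and elongation factors, 4 subunits of the PAF complex, 6 of Polycomb repressive complex 1 (PRC1), 4 of Polycomb repressive complex 2 (PRC2) and 2 histone demethylases. All 35 were named on the array. Each group held 3 independent mouse leukemias of C57BL/6 strain, grown in congenic recipients from bone marrow transduced with MLL-ENL and collected when the recipients were moribund. The marrow had an excised Runx1 gene in the group labelled Runx1-KO and an intact one in the group labelled Control, and all 6 leukemias carried the fusion. The promoter behind the fusion, the species of its sequence, the recombinase used for excision, and the age and sex of the mice are not given in the sources used here. The comparison asked how the absence of Runx1 changed gene expression in these leukemias.

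MLL, encoded by Kmt2a, methylates histone H3 at lysine 4 and is held at its target genes by menin and LEDGF. When MLL is fused to ENL, encoded by Mllt1, the fusion draws the super elongation complex and the H3 lysine 79 methyltransferase DOT1L to those genes and keeps them transcribed, the HOXA cluster among them. Polycomb complexes hold many of the same genes silent in differentiated blood cells, PRC2 by methylating H3 lysine 27 and PRC1 by ubiquitinating histone H2A.

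Background limits and array quality bear on several members. The limit of an array was the brightest of 27 spike-in probe sets without target, 14.1 to 22.5, and 30 of the 35 members lay above it on all arrays. Cbx2 lay above it on no array and Mllt3, Aff3, Ell and Cbx8 on some. The targeted gene ran against the labels, and differences are between arrays labelled Runx1-KO and Control throughout. Runx1 intensity was 1128 to 1630 in the arrays labelled Runx1-KO and 680.3 to 1022 in Control, 1.70-fold higher without overlap (limma, unadjusted p = 0.0213, adjusted p = 0.322 over all genes). All 6 Runx1 probe sets were higher in Runx1-KO, and the position of its probe sets relative to the excised part was not given in the sources used here. The 8 myeloid markers were above the limit on all arrays, with a summed intensity of 12336 to 13421 in Runx1-KO and 10059 to 14482 in Control, and Mpo and Elane, which mark granule-forming progenitors, were bright in every leukemia. Of these 8, 7 were higher in Runx1-KO, all with overlap. Csf1r alone was lower, without overlap (12.5% of the list, against 20.9% of all genes). It was 843.9 to 978.0 in Runx1-KO and 1359.8 to 1982.5 in Control, 1.83-fold lower (limma, adjusted p = 0.226). The 7 measured mature neutrophil markers summed to 9292 to 11441 in Runx1-KO and 4609 to 7081 in Control, with S100a8 the largest part. All 7 were higher in Runx1-KO, 5 without overlap (71.4%, against 20.9% of all genes), while Ltf and Mmp9 overlapped. The 8 monocyte and macrophage markers summed to 1692 to 1970 in Runx1-KO and 3379 to 4050 in Control, with Mpeg1 the largest part. Of these, 7 were lower in Runx1-KO, 6 without overlap (75.0%), including C1qa, which lay below background on all arrays. Cd68 overlapped, and Fcgr1, near background, was higher with overlap. B cell markers summed to 170.8 to 315 in Runx1-KO and 210 to 293 in Control, with 2 of 7 measured genes above the limit on all arrays. Stromal and endothelial markers summed to 169 to 248 and 147 to 328, with 3 of 8 above it on all arrays. T and NK cell markers summed to 68.5 to 79.4 and 82.6 to 131, with 0 of 6 above it on all arrays. Of those 6, 5 lay below the limit in every Runx1-KO array, and Nkg7 went the other way, at 35.7 to 58.3 in Runx1-KO and 4.1 to 19.1 in Control. The part of these cell types in the members' differences was not tested. In bulk RNA, fewer cells of a type and less RNA per cell cannot be told apart. Gapdh has a 3' end that outshines its 5' end more as RNA degrades. That ratio was 7.10 in Runx1-KO 1 and 2.67 to 3.02 in the other arrays. The same ratio for beta-actin did not set that array far apart, at 1.11 in Runx1-KO 1 and 1.03 to 1.10 in the others. The part of RNA quality in the differences was not tested.

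None of the 35 genes passed the test, and the counts of members at looser limits lay near those of all genes. At a limma Benjamini-Hochberg adjusted p under 0.05 the members numbered 0 of 35, where 16 of 18194 genes passed (0.0879%), 6 of them higher (0.033%) and 10 lower (0.055%) in Runx1-KO. At an unadjusted p under 0.05 the members numbered 5 of 35 (14.3%), against 12.6% of all genes. Aff4, Aff1 and Jmjd1c were the 3 on the higher side, where the share of all genes was 5.62%, and Ash2l and Ezh2 the 2 on the lower side, where it was 7.01%. The groups did not overlap in 7 of the 35 members, against 20.9% of all genes. Of these, 4 were higher in Runx1-KO (9.17% of all genes) and 3 lower (11.7% of all genes). Among genes above the background limit on all 6 arrays, the groups did not overlap in 23.3% of the 30 members and 26.4% of all such genes. There an unadjusted p under 0.05 was found for 16.7% of the members and 13.1% of all such genes. The median log2 difference over the members, Runx1-KO minus Control, was -0.04, and it was -0.01 over all genes. The individual differences below are therefore given with their intervals, as values of these 6 leukemias.

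**Figure D1:**
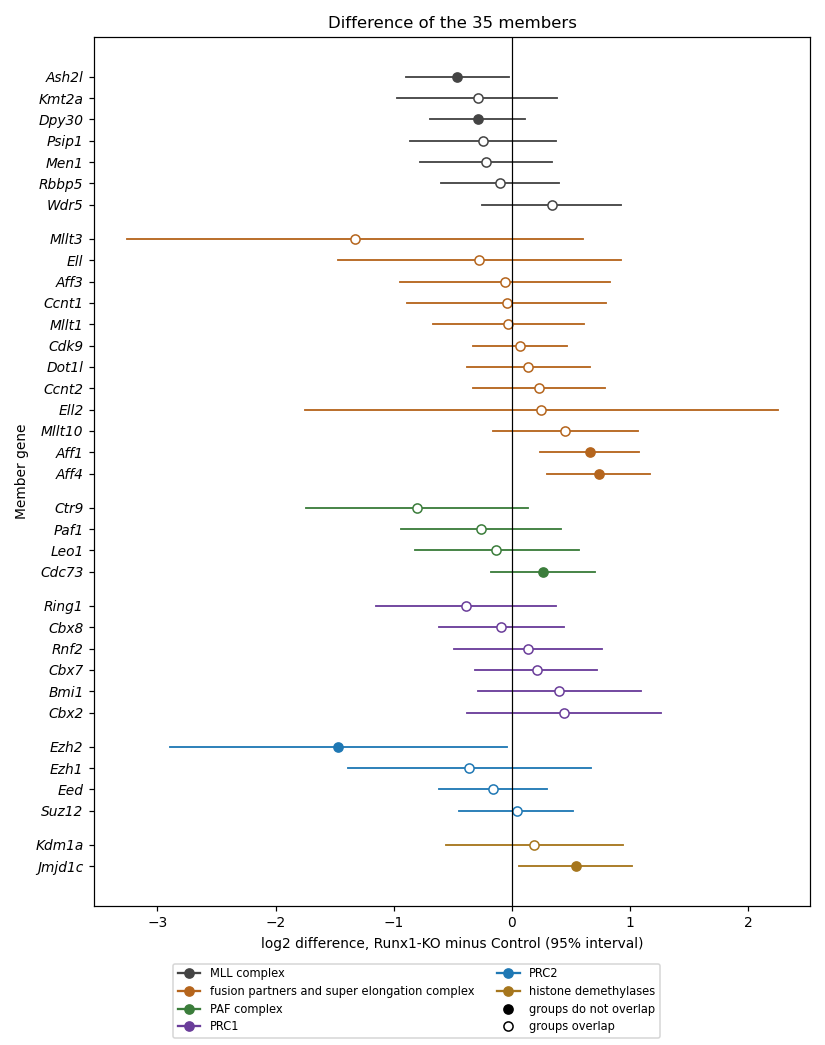
The log2 difference (x axis, Runx1-KO minus Control) of each of the 35 members (y axis), with the 95% interval of the limma fit as a line and the complexes in separate colours. Filled points mark the 7 members whose groups did not overlap, from Ezh2 at -1.47 to Aff4 at 0.74.

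The promoters of 3 members are printed because these genes carried the largest differences without overlap between the groups: Ezh2, lower in Runx1-KO, and Aff1 and Aff4, higher. Each runs from 250 bases before to 20 bases after the RefSeq transcription start in GRCm38.p6, 5' to 3' on the gene's strand. Capitals mark a match to TGTGGT, the core sequence bound by RUNX proteins, or to TTTGGCGC or TTTCGCGC, sequences of the E2F factors of the cell cycle, searched on both strands. The Ezh2 stretch lies at chr6:47595011-47595280 on the minus strand, Aff1 at chr5:103753912-103754181 and Aff4 at chr11:53350517-53350786 on the plus strand.
Ezh2: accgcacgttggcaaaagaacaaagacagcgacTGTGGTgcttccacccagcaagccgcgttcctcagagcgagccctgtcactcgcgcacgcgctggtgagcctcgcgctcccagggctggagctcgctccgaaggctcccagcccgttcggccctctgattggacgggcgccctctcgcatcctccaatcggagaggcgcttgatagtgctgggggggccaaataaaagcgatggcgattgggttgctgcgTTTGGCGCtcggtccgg
Aff1: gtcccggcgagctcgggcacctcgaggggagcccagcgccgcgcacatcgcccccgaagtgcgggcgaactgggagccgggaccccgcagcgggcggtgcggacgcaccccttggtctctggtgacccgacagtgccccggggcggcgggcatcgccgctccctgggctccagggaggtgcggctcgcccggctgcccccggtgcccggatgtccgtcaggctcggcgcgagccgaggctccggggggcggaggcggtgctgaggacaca
Aff4: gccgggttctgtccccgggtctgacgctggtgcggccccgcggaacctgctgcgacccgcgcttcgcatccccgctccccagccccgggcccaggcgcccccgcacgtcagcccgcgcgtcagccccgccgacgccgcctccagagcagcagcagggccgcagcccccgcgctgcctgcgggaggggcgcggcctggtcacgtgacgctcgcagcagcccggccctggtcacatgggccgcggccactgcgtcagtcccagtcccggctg
The Ezh2 stretch held 1 RUNX core match, whose first base lies at -217 from the start, and 1 E2F match beginning at position 4 of the transcript, which do not overlap. The Aff1 and Aff4 stretches held 0 of either and were richer in G and C, at 77.8% and 78.5% against 64.4% for Ezh2. In the whole windows of 300 bases, from 250 before to 50 after a start, 41 windows of 31 members were found in the RefSeq table. A RUNX core match stood in 6 of these 41 (14.6%), those of Ccnt2, Mllt10, Wdr5, Ezh2, Leo1 and Dpy30, and in 16.8% of all 32851 windows. An E2F match stood in 1 member window (2.4%) and in 0.8% of all windows. A match describes letters, not binding, and windows of 1 gene can overlap.

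In the MLL complex the separated genes were the subunits Ash2l and Dpy30, both lower in Runx1-KO by small amounts. Of its 7 genes, 6 had a negative and 1 a positive difference, with a median of -0.24, and 0 passed. Kmt2a, the MLL gene itself, had intensities of 123, 93.2 and 69.0 in Runx1-KO 1, 2 and 3 and of 139, 102 and 103 in Control 1, 2 and 3. The groups overlapped, with Runx1-KO 3 lowest and Control 1 highest, and Runx1-KO minus Control was -0.29 ± 0.28 on the log2 scale (moderated SE, 3 arrays in each group, adjusted p = 0.703). The interval from -0.97 to 0.38 leaves room for changes of either sign. Neither the series' labels nor its table says whether Kmt2a and Mllt1 probe sets also read the transduced fusion, so these signals may hold both sources.

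Ash2l, a WDR5-associated subunit that stimulates MLL methyltransferase activity, was 295, 249 and 297 in Runx1-KO and 359, 383 and 412 in Control. The groups did not overlap, and the difference was -0.46 ± 0.18, or 1.38-fold lower in Runx1-KO (unadjusted p = 0.0417, adjusted p = 0.374). Its other probe set was lower by less, at -0.20, and there the groups overlapped. Dpy30, which binds ASH2L in the same complex, was 787, 794 and 858 in Runx1-KO and 982, 1006 and 987 in Control. The replicates lay close together, and the gene was 1.22-fold lower at -0.29 ± 0.16 (adjusted p = 0.513), with log2 SDs of 0.07 and 0.02.

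Wdr5, the subunit that links the catalytic protein to the others, was the only gene of the complex with a positive difference, 0.34 ± 0.24 (adjusted p = 0.598). Runx1-KO 2 and 3, at 997 and 979, were its brightest arrays, while Runx1-KO 1 at 638 lay inside the Control range of 613 to 738. Rbbp5, the subunit that joins ASH2L to WDR5, differed by -0.10 ± 0.21 (adjusted p = 0.872). Men1, encoding menin, stood at 27.1 to 42.9 over all 6 arrays and differed by -0.22 ± 0.23 (adjusted p = 0.735). Psip1, encoding LEDGF, which tethers MLL and menin to chromatin, differed by -0.24 ± 0.25 (adjusted p = 0.732) on its brightest probe set. All 3 Psip1 probe sets were lower in Runx1-KO, and 1 of them separated the groups, at 82.8, 49.6 and 93.7 against 145, 142 and 133 (-0.94 ± 0.28, adjusted p = 0.297 over all probe sets). Which Psip1 isoforms each probe set reads was not examined.

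**Figure D2:**
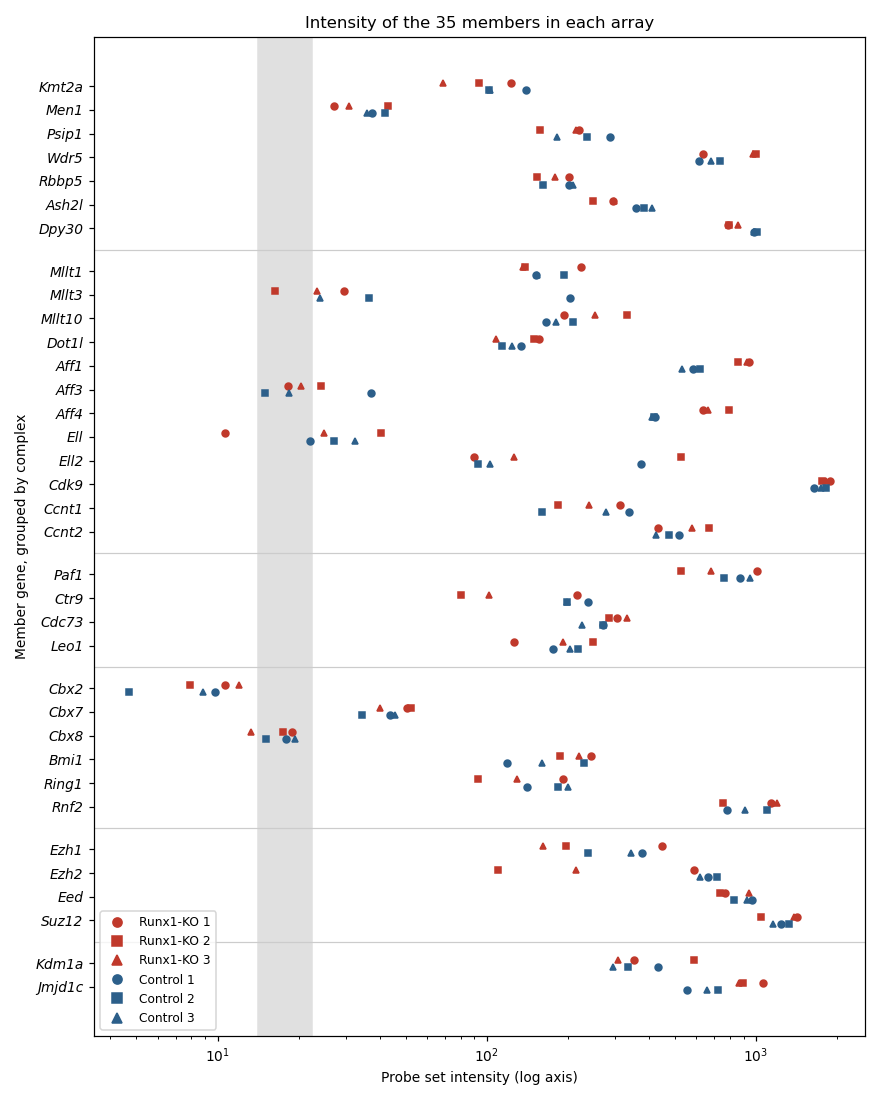
Probe set intensity on a log axis (x) of the 35 members (y), grouped by complex, with 1 point per array in red for Runx1-KO and blue for Control and a grey band for the background limits of 14.1 to 22.5. Aff1 and Aff4 separate to the right in Runx1-KO, Ezh2 to the left, and Cbx2 lies below the band on all arrays.

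Among the fusion partners and elongation factors, the scaffold genes Aff1 and Aff4 lay higher in every Runx1-KO leukemia. Of the 12 genes 7 had a positive and 5 a negative difference, with a median of 0.10, and 0 passed. Aff4, the scaffold on which the super elongation complex assembles, was 639, 792 and 661 in Runx1-KO and 420.0, 418 and 412 in Control. Every Runx1-KO leukemia lay above every Control, and the Control arrays differed by only 0.02 (SD, log2). The difference of 0.74 ± 0.18, or 1.67-fold, had the lowest p of all members (unadjusted p = 0.00567, adjusted p = 0.228), with a 95% interval of 0.30 to 1.17. Aff1, the AF4 scaffold and itself a frequent MLL fusion partner, was 946, 856 and 929 in Runx1-KO and 582, 619 and 532 in Control. It showed the same separation, at 0.66 ± 0.17, or 1.58-fold (unadjusted p = 0.00809, adjusted p = 0.251, interval 0.24 to 1.08).

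With any 1 array left out, the Aff4 difference ran from 0.64 to 0.80 and that of Aff1 from 0.60 to 0.71. Probe sets of these 2 genes disagreed, however. The 2 dimmer Aff4 probe sets differed by 0.34 ± 0.33 and -0.15 ± 0.25, and the 2 dimmer Aff1 probe sets by 0.20 ± 0.32 and -0.03 ± 0.27, with overlapping groups in all 4. With the mean of all probe sets per gene, Aff4 was at 0.31 (adjusted p = 0.542) and Aff1 at 0.28 (adjusted p = 0.655). Aff3, a lymphoid relative, was close to background on most arrays, with Control 1 highest at 37.1, and differed by -0.06 ± 0.37 (adjusted p = 0.964).

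The other fusion partners did not separate. Mllt1, the ENL gene, was 224, 139 and 136 in Runx1-KO and 152, 194 and 154 in Control, at a difference of -0.03 ± 0.26 (adjusted p = 0.972). The group ranges overlapped fully, with Runx1-KO 1 brightest. Its other probe set separated them, at 14.6, 53.0 and 37.9 against 68.2, 61.6 and 56.0, and there Runx1-KO 1 lay below its background limit of 17.0. It was at least 1.90-fold lower in Runx1-KO (adjusted p = 0.454 over all probe sets). Mllt10, encoding AF10, the cofactor of DOT1L, differed by 0.45 ± 0.25 (adjusted p = 0.503), with Runx1-KO 2 highest at 331. Of its 4 probe sets 2 were higher and 2 lower. Dot1l differed by 0.14 ± 0.22 on one probe set and -0.39 ± 0.25 on the other, with overlap on both (adjusted p = 0.824 for the first).

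Mllt3, the AF9 gene and close relative of ENL, varied most of all members, at least 10.4-fold between its highest and lowest array, with the lowest, below background, raised to its limit. It was 29.5, 16.4 and 23.4 in Runx1-KO and 205, 36.4 and 24.1 in Control 1, 2 and 3. The high value belonged to Control 1 alone, and the other 5 arrays lay near background. The difference of -1.33 ± 0.80 (adjusted p = 0.533), a fold of at least 2.37 with Runx1-KO 2 raised to its background limit, was -0.40 without Control 1 (adjusted p = 0.747). Control 1 also stood apart in red cell genes. The 5 measured erythroid markers summed to 3925 there and to 47.3 to 174 in the other arrays, with Alas2, the heme synthesis enzyme of red cells, at 814.5 against 4.7 to 16.6. The part of red cell precursors in the Mllt3 signal was not tested.

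Ell2, an elongation factor of the super elongation complex, was the next most variable of the elongation genes, 5.86-fold over the arrays. It was 89.8, 527 and 127 in Runx1-KO and 374, 93.0 and 102 in Control. Each group thus held 1 bright leukemia, Runx1-KO 2 and Control 1, and the sign of the difference (0.25 ± 0.83, adjusted p = 0.926) hung on single arrays: it was -0.52 without Runx1-KO 2, -0.11 without Control 2, -0.04 without Control 3 and 0.90 without Control 1. Ell itself was 10.7 to 40.6, near background, at -0.28 ± 0.49 (adjusted p = 0.851).

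The kinase module of P-TEFb, which releases paused RNA polymerase II, hardly varied in its catalytic subunit. Cdk9 was 1886, 1755 and 1824 in Runx1-KO and 1650, 1826 and 1738 in Control, a spread of 1.14-fold over all 6 leukemias. Its difference was 0.07 ± 0.17 with an interval of -0.33 to 0.47 (adjusted p = 0.896). The other Cdk9 probe set, above background on 4 of 6 arrays, read 22.6 to 47.7 in Runx1-KO and 11.2 to 17.3 in Control, with Control 1 and 3 below background, at least 1.57-fold higher in Runx1-KO (adjusted p = 0.324 over all probe sets). The cyclin genes Ccnt1 (-0.04 ± 0.35, adjusted p = 0.971) and Ccnt2 (0.23 ± 0.23, adjusted p = 0.722) both overlapped between the groups.

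**Figure D3:**
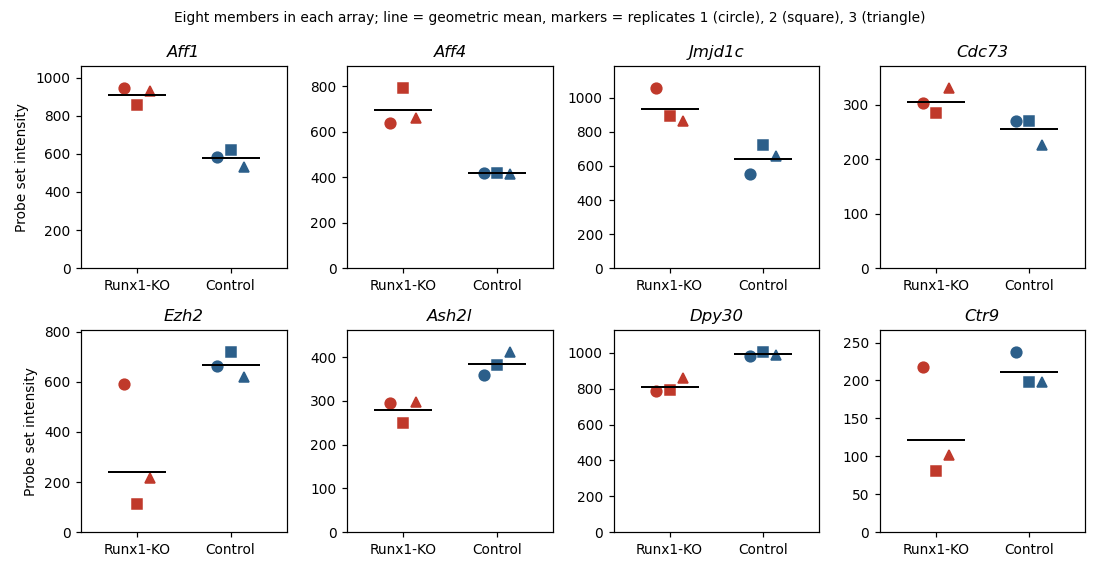
Probe set intensity (y axis, from 0) in each leukemia for 8 members, with Runx1-KO in red, Control in blue, replicates by marker shape and the geometric mean as a line. The 4 upper genes are higher in every Runx1-KO leukemia, Ezh2, Ash2l and Dpy30 are lower in every one, and in Ctr9 the Runx1-KO 1 value of 217 lies inside the Control range.

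In the PAF complex, which travels with RNA polymerase II and binds MLL directly, 3 of 4 genes had a negative difference and 0 passed, with a median of -0.20. Ctr9, its scaffold subunit, was 217, 80.3 and 102 in Runx1-KO and 238, 199 and 198 in Control. Runx1-KO 2 and 3 lay far below the Controls, while Runx1-KO 1 was among them. The difference was -0.80 ± 0.39, or 1.74-fold lower (unadjusted p = 0.0831, adjusted p = 0.446), and -1.22 without Runx1-KO 1 against -0.50 without Runx1-KO 2. All 5 Ctr9 probe sets were lower in Runx1-KO, from -0.32 to -1.21, and in 2 of them the groups did not overlap. The lowest p among these was at 57.7, 31.8 and 44.4 against 97.3, 90.1 and 114 (-1.21 ± 0.27, adjusted p = 0.219 over all probe sets).

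Cdc73, encoding parafibromin, was on the other side, at 304, 284 and 331 in Runx1-KO and 270.2, 269.7 and 226.5 in Control. The groups did not overlap, but the gap was small, at 0.26 ± 0.18 (adjusted p = 0.588), and of 7 probe sets 5 were higher and 2 lower. Paf1 was 1012, 529 and 680.3 in Runx1-KO and 762 to 947 in Control (-0.26 ± 0.28, adjusted p = 0.738). Leo1 had Runx1-KO 1 lowest at 126 and Runx1-KO 2 highest at 249, at -0.13 ± 0.29 (adjusted p = 0.887).

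In PRC2 the catalytic subunit Ezh2 had the largest difference of all 35 members, and among the other 3 genes only a dimmer Ezh1 probe set separated the groups in signal above background. Ezh2, the H3 lysine 27 methyltransferase of dividing cells, was 591, 110.4 and 215 in Runx1-KO and 663, 719 and 620 in Control. All 3 Runx1-KO leukemias lay below the Controls, but Runx1-KO 1 only just, and Runx1-KO 2 was lowest. The difference was -1.47 ± 0.59, or 2.76-fold lower, with an interval of -2.89 to -0.04 (unadjusted p = 0.0450, adjusted p = 0.385). The spread within Runx1-KO (SD of 1.22, log2) was far above that in Control (0.11). Leaving out Runx1-KO 1 gave -2.11 (adjusted p = 0.144). Leaving out Runx1-KO 2 gave -0.90, with an adjusted p of 0.490. The gene had 1 probe set, so no other reading was at hand.

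The Suz12 and Eed genes encode the subunits that PRC2 needs for stability and for reading its own mark. Suz12 was 1419, 1046 and 1382 against 1236, 1323 and 1161, at 0.04 ± 0.20 (interval -0.45 to 0.52, adjusted p = 0.959), and 4 of its 6 probe sets were higher. Eed was 737 to 945 against 831 to 965, at -0.16 ± 0.19 (adjusted p = 0.772). Ezh1, the paralogue that serves PRC2 in resting cells, was 448, 198 and 162 in Runx1-KO and 376, 237 and 343 in Control (-0.36 ± 0.43, adjusted p = 0.766). Runx1-KO 1 was its brightest array and Runx1-KO 3 its dimmest. Of 4 probe sets 3 were lower, 1 of these below background on all arrays. A dimmer one, above background on all arrays, separated the groups at 91.2, 63.3 and 66.7 against 103, 95.3 and 111 (-0.50 ± 0.22, adjusted p = 0.427 over all probe sets). The mean of all Ezh1 probe sets gave -0.58 (adjusted p = 0.477), but it takes in the probe set below background on all arrays, at -1.56.

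Genes of the G2 and M phases of the cell cycle were set beside Ezh2. All 9 measured genes of that list had a negative difference, with a median of -0.79, and 0 passed (lowest adjusted p = 0.287). The groups did not overlap in 6 of the 9 (66.7%), against 20.9% of all genes. Cdc20, Aurka and Birc5 overlapped, and Cdc20 was highest of all arrays in Runx1-KO 1, at 597 against 473 to 518 in Control. Their summed intensity was 7651, 5104 and 7530 in Runx1-KO and 9872, 9331 and 8946 in Control, so that all Runx1-KO leukemias lay below all Controls and Runx1-KO 2 was lowest, as for Ezh2. Runx1-KO 1 and 3 had nearly the same sum but differed in Ezh2, at 591 and 215. The part of cell cycle activity in the Ezh2 difference was not tested.

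**Figure D4:**
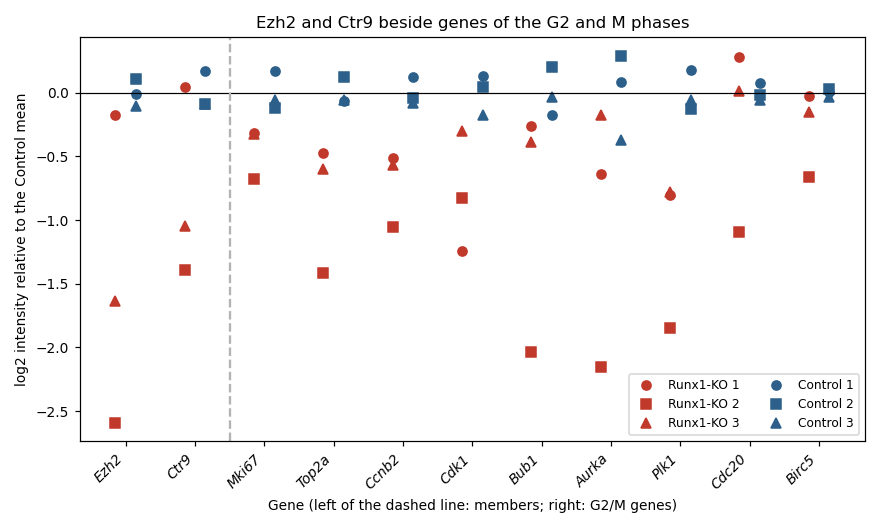
The log2 intensity relative to the Control mean (y axis) of Ezh2, Ctr9 and 9 genes of the G2 and M phases (x axis), with 1 point per array. Runx1-KO 2 (red squares) is the lowest array for Ezh2 and Ctr9 and for all of the phase genes except Cdk1, where Runx1-KO 1 is lowest at 286.

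PRC1 genes did not separate the groups in any member. Of 6 genes 4 had a positive and 2 a negative difference, with a median of 0.17. Bmi1, the PRC1 subunit needed for self-renewal of blood stem cells, was 243, 187 and 220.1 in Runx1-KO and 119, 230 and 160 in Control (0.40 ± 0.29, adjusted p = 0.598), and its other probe set went the opposite way (-0.34 ± 0.25). The 2 ubiquitin ligase genes overlapped between the groups. Rnf2 differed by 0.14 ± 0.26 (adjusted p = 0.862). Ring1 differed by -0.39 ± 0.31 (adjusted p = 0.643, interval -1.15 to 0.37), was lowest in Runx1-KO 2 at 92.9, and was at -0.66 without Runx1-KO 1 and -0.14 without Runx1-KO 2.

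The CBX proteins read methylated H3 lysine 27 and bring PRC1 to it, and their genes were dim here. Cbx7 was 34.4 to 52.1 over the 6 arrays (0.21 ± 0.21, adjusted p = 0.728). Cbx8, which also binds ENL and AF9, was 13.3 to 19.4, above background on 3 of 6 arrays, and Cbx2 was 4.7 to 12.0, below it on all, so no fold is stated for either (adjusted p = 0.898 for Cbx8 and adjusted p = 0.625 for Cbx2).

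Of the demethylase pair, Jmjd1c, a JmjC-domain protein, was higher in every Runx1-KO leukemia, at 1058, 894 and 864 against 552, 724 and 660.0. The difference was 0.54 ± 0.20, or 1.46-fold (unadjusted p = 0.0325, adjusted p = 0.351, interval 0.06 to 1.02), but 1 of its 3 probe sets was lower (-0.39 ± 0.34). Kdm1a, encoding LSD1, which removes methyl groups from H3 lysine 4, was 353, 588 and 306 in Runx1-KO and 434, 334 and 296 in Control (0.19 ± 0.31, adjusted p = 0.836). Its highest array was Runx1-KO 2.

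Readings of the same gene differed between probe sets in many members. Of the 35 genes 6 had 1 probe set and 29 several, and among the latter all probe sets pointed one way in 12 and both ways in 17. These counts include probe sets below background on all arrays. In Eed, Ell2, Aff3, Cbx7 and Rnf2 the opposite sign came only from such probe sets, and in Cbx2 both readings were of that kind. Over all 93 probe sets of the members, 0 passed when adjusted over 34958 probe sets, of which 30 passed (0.0858%). An unadjusted p under 0.05 was found for 8 (8.6%), against 12.3% of all probe sets. The groups did not overlap in 16 (17.2%), against 20.4% of all probe sets.

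**Figure D5:**
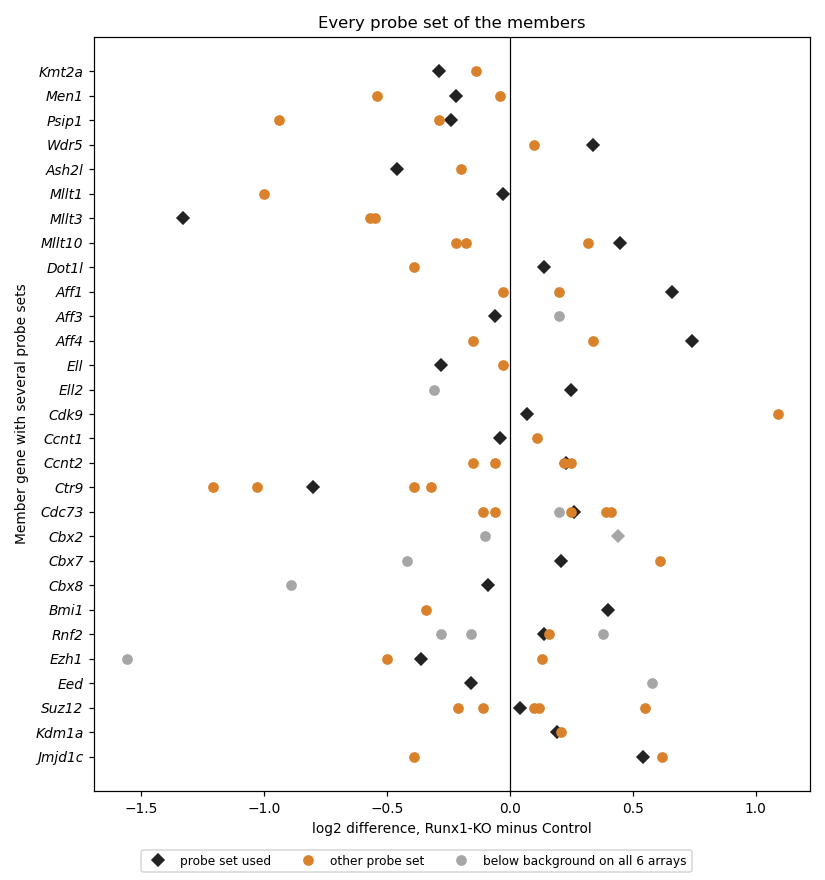
The log2 difference (x axis, Runx1-KO minus Control) of every probe set of the 29 members with more than 1 (y axis). Black diamonds are the probe sets used, orange points the others, and grey marks lie below background on all 6 arrays, as both Cbx2 probe sets do. All 5 Ctr9 probe sets and all 3 of Psip1 lie below 0, with the Ctr9 point at -0.32 from a probe set above background on 4 of 6 arrays.

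The Runx1-KO leukemias differed more among themselves than the Controls in these genes. The median SD over the members was 0.33 in Runx1-KO and 0.18 in Control (log2), where all genes had 0.38 and 0.28. Runx1-KO 2 held the extremes most often, as the highest array for 10 members and the lowest for 11. The difference in spread was not tested.

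In the wider machinery the counts over all lists lay below the shares of all genes, with some lists above and some below. Of 92 further genes of these complexes and their partners 83 were measured, 42 with a positive and 41 with a negative difference, and the median was 0.01. Over all genes 0 passed, 7 had an unadjusted p under 0.05 (8.4%, against 12.6% of all genes), and the groups did not overlap in 15 (18.1%, against 20.9%). By list, 4 of 15 further COMPASS genes (26.7%), 3 of 22 elongation genes (13.6%), 3 of 27 Polycomb genes (11.1%), 2 of 11 LSD1 partners (18.2%) and 3 of 8 further histone lysine genes (37.5%) did not overlap, and the median differences ran from -0.11 to 0.08. The lowest p belonged to Kdm5b, an H3 lysine 4 demethylase, at 125, 301 and 119 in Runx1-KO and 77.1, 68.6 and 36.2 in Control (1.52 ± 0.47, or 2.87-fold higher, adjusted p = 0.304), with 4 of 4 probe sets higher. It was followed by Yaf2, a subunit of variant PRC1 (0.66 ± 0.22, adjusted p = 0.330), and Kat8, the acetyltransferase of H4 lysine 16 (-0.65 ± 0.22, adjusted p = 0.332). Eaf1, which binds ELL proteins (0.59 ± 0.23, adjusted p = 0.370), and Setd1a, a sister methyltransferase of MLL (0.57 ± 0.22, adjusted p = 0.374), came next. Of the 2 probe sets each of Eaf1 and Setd1a, 1 was higher and 1 lower. Both 2 of 2 were higher for Yaf2, and Kat8 had 1.

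Sex chromosome genes of the same enzyme families coincided with the groups. Kdm5d, a Y-linked H3 lysine 4 demethylase, was 82.8 to 96.4 in Control and below background in every Runx1-KO array, at least 4.83-fold lower (adjusted p = 0.00901), and Uty, the Y-linked relative of the H3 lysine 27 demethylase gene Kdm6a, was at least 2.19-fold lower (adjusted p = 0.0124). Xist, expressed from the inactive X of female cells, was 1624 to 1895 in Runx1-KO and 330.8, 85.4 and 25.3 in Control 1, 2 and 3. The X-linked counterparts of Kdm5d and Uty, Kdm5c (0.14 ± 0.21, adjusted p = 0.817) and Kdm6a (0.42 ± 0.23, adjusted p = 0.496), overlapped between the groups. All 4 Kdm6a probe sets were higher in Runx1-KO, and of 9 for Kdm5c 5 were higher and 4 lower. Sex and genotype cannot be told apart in any difference above.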

How the data were processed

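Gene expression was measured on 6 single-colour mouse arrays, 3 per group, from biotin-labelled cDNA of total RNA, per the labels' protocols. The deposited values were linear probe set intensities, already on a common scale with array medians of 24.4 to 26.0. How the authors summarised probes and normalized them was not given in the sources used here. Of 45101 probe sets, 34958 had 1 symbol in the platform annotation, 932 had several and 9211 none, and only the first were used, as 18194 genes by their brightest probe set. Symbols were checked by Entrez identifier against RefSeq (34754 found, 0 changed). Intensities were raised to a floor of 1 (1 value) and taken to log2. Groups were compared with limma 3.58.1 in R 4.3.3 (lmFit and eBayes, two-sided, no filter or covariate), with Benjamini-Hochberg adjustment over all genes at 0.05. The SE is the moderated one and intervals are 95%. The fit was run on simulated data, with planted changes larger than the differences of most members. That run does not show whether differences of the members' size would pass. The number of arrays limits the precision. The background limit was set on spike-in probe sets. A gene at or below it on some arrays has a fold computed with those arrays at the limit.

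The members and lists were chosen with earlier results of these data known. Named were all members, with values in every array for those without overlap, with an unadjusted p under 0.05, or in the fusion, and the 5 related genes of lowest p. Genes outside that rule (Mllt3, Ell2, Cdk9, Wdr5, Ctr9 and others given by array, and the sex-linked pairs) were chosen after their values were seen. The alternatives were quantile normalization, median centring, a filter on dim genes, other uses of probe sets, an offset of 16, a variance trend, an adjusted p under 0.1, the replicate number as a block, and leaving out arrays. Spearman correlations over genes were 0.949 to 0.972 between arrays. Promoter sequences are from RefSeq (GRCm38.p6).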

Additional observations from a re-analysis of the deposited data

How the results depend on the processing

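Over the 16 alternatives (15 for Cbx2, which the filter on dim genes removed), 0 members and 0 of the 83 related genes passed, and the lowest adjusted p of a member was 0.0669, for Aff1 with a variance trend and robust fit. The number of all genes called moved more: from 6 higher and 10 lower to 14 and 20 over genes above background on at least 3 arrays, 25 and 39 with an offset of 16, 39 and 65 with the variance trend, 17 and 19 at an adjusted p under 0.1, 12 and 18 over all probe sets, and 0 and 0 without both arrays numbered 1, which also left 0 members. Leaving out each array gave 1 higher and 1 to 2 lower. With the replicate number as a block 0 were higher and 0 lower. The deviations of same-numbered arrays correlated at -0.01, -0.09 and 0.04 over genes. These values, from 1 pair of arrays each, cannot show whether the numbers pair the leukemias, and the labels do not say so. The members' median was 0.03 with quantile normalization, against 0.01 for all genes, and -0.11 to 0.04 with each array left out. The members without overlap numbered 7 to 17 with each array left out, most without Runx1-KO 1, where 36.2% of all genes did not overlap, 19 without both arrays numbered 1 (47.3% of all genes), and 16 of 93 as probe sets.

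The difference kept its sign in every alternative for 22 members. Several alternatives could not change it. The filter on dim genes, the variance trend, the replicate block, the threshold of 0.1 and the fit over all probe sets reuse the same difference. Among the 22 were genes with a probe set of opposite sign above background on all arrays, such as Bmi1 (-0.34), Mllt10 (-0.22) and Jmjd1c (-0.39). The difference changed sign somewhere in the other 13 members. With quantile normalization Mllt1 was at 0.05 and Ccnt1 at 0.03. With the mean of all probe sets Dot1l was at -0.13, Aff3 at 0.07, Ell2 at -0.03, Ccnt1 at 0.03 and Eed at 0.21. For Aff3, Ell2 and Eed the only other probe set in that mean lay below background on all arrays. Without both arrays numbered 1 Aff3 was at 0.42, Ell at 0.10, Leo1 at 0.05, Rnf2 at -0.07 and Suz12 at -0.04. With each array left out the differences ran from -0.21 to 0.00 for Rbbp5, from -0.27 to 0.09 for Mllt1, from -0.32 to 0.33 for Aff3, from -0.71 to 0.25 for Ell, from -0.52 to 0.90 for Ell2, from -0.35 to 0.18 for Ccnt1, from -0.35 to 0.14 for Leo1, from -0.19 to 0.06 for Cbx8, from -0.04 to 0.18 for Suz12, from -0.09 to 0.38 for Kdm1a. The cause of these sign changes was not tested.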
